A study of Mus musculus with 14 samples.

Results

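CD4 T cells grown toward the follicular helper fate while TGF-β was blocked (TfhA) were compared with CD4 T cells grown under Th1 conditions, by bulk RNA sequencing. The members are the 4 libraries titled TfhA (replicates 1, 2, 4 and 5) and the 5 titled Th1 (replicates 1 to 5), 9 of the 14 libraries of the series, and the comparison covers the 13075 of 27179 listed genes with enough counts to be tested. All cells were naive CD4 cells of C57BL/6 mice that had spent 3.5 days in culture on plate-bound antibodies against CD3 and CD28, the signals that mimic antigen and costimulation, and were then sorted by flow cytometry into lysis reagent. TfhA cultures held an antibody against TGF-β, and the remaining 5 libraries (Tfh5) came from the same type of culture with 5 ng/ml TGF-β; Tfh5 levels stand beside some results as a description, with no test. The cytokines and antibodies that make up the Th1 and Tfh conditions beyond these, the ages of the animals and the gate of the sort are not stated in the labels. These are cells differentiated in a dish, and whether replicates came from separate animals or cultures is not stated, so p-values measure only the spread between these samples.

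Th1 cells are the helper cells of defence against intracellular microbes: IL-12, through STAT4, and interferon-γ switch on T-bet (Tbx21), which drives interferon-γ itself. Follicular helper cells instead provide CD40 ligand and IL-21 to B cells in germinal centres, and depend on the repressor Bcl6 and on TCF-1 (Tcf7), with Blimp-1 (Prdm1) and strong IL-2 signalling as opponents. TGF-β restrains T-bet and IL-2 in activated T cells and, together with IL-6, is the signal that starts the Th17 program.

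Levels are CPM, counts scaled to library size with TMM factors, as mean ± SD with n = 4 for TfhA and n = 5 for Th1 and Tfh5. They are not corrected for gene length and compare libraries, not genes. The threshold for passing was an adjusted p of 0.05 in edgeR's quasi-likelihood F test (Benjamini-Hochberg over all tested genes), and log2 fold changes (TfhA minus Th1) carry ± SE. "Rose" and "fell" are used for genes that passed, in the direction of TfhA relative to Th1. Library totals were lower in TfhA (8805921 to 13027721 counts) than in Th1 (13390058 to 16108059), without overlap (exact permutation test, two-sided, p = 0.00794, the smallest possible over 126 regroupings, 0.0143 after adjustment over 9 library measures). The mitochondrial share of counts overlapped (5.82% ± 1.30 against 5.91% ± 0.871, exact permutation test, two-sided, p = 0.889). Across genes, log2 CPM of libraries correlated at 0.977 to 0.988 within TfhA, 0.985 to 0.991 within Th1 and 0.916 to 0.943 between the groups. Among the genes given in this report, Th1 replicate 1, the deepest library, lay apart from its group more often than any other library did. Without Th1 replicate 1, 5441 genes passed, 2799 higher and 2642 lower.

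All libraries carried the RNA of CD4 T cells. Of 10 genes of CD4 T cell identity, 5 rose, 3 fell and 2 did not pass, with changes between -0.79 and 0.71 on the log2 scale. Cd4, the coreceptor, measured 429, 412, 358 and 397 CPM in TfhA replicates 1, 2, 4 and 5 and 488, 483, 451, 439 and 439 CPM in Th1 replicates 1 to 5 (-0.20 ± 0.08, adjusted p = 0.0477, a call lost in 10 of 15 alternative settings, where the adjusted p was 0.0505 to 0.14). The T cell receptor subunit Cd3d rose 1.46-fold and the common leukocyte antigen Ptprc 1.64-fold, and the adhesion molecules Thy1 (1.73-fold) and Cd2 (1.63-fold) fell. In bulk RNA, fewer cells of a kind and less RNA per cell cannot be told apart.

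The transcriptomes differed widely. Of the tested genes, 5852 passed (44.8%), 3031 higher in TfhA (23.2%) and 2821 lower (21.6%). By at least 2-fold, 702 were higher (5.37%) and 1084 lower (8.29%), so among changes of this size decreases outnumbered increases. For 4977 genes (38.1%) the libraries of the groups did not overlap. The median log2 fold change of all tested genes was 0.03, and that of the genes that rose and fell was 0.58 and -0.76. These shares are the background against which the gene groups below are read: a group in which about 44.8% of members passed did as genes in general did.

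**Figure D1:**
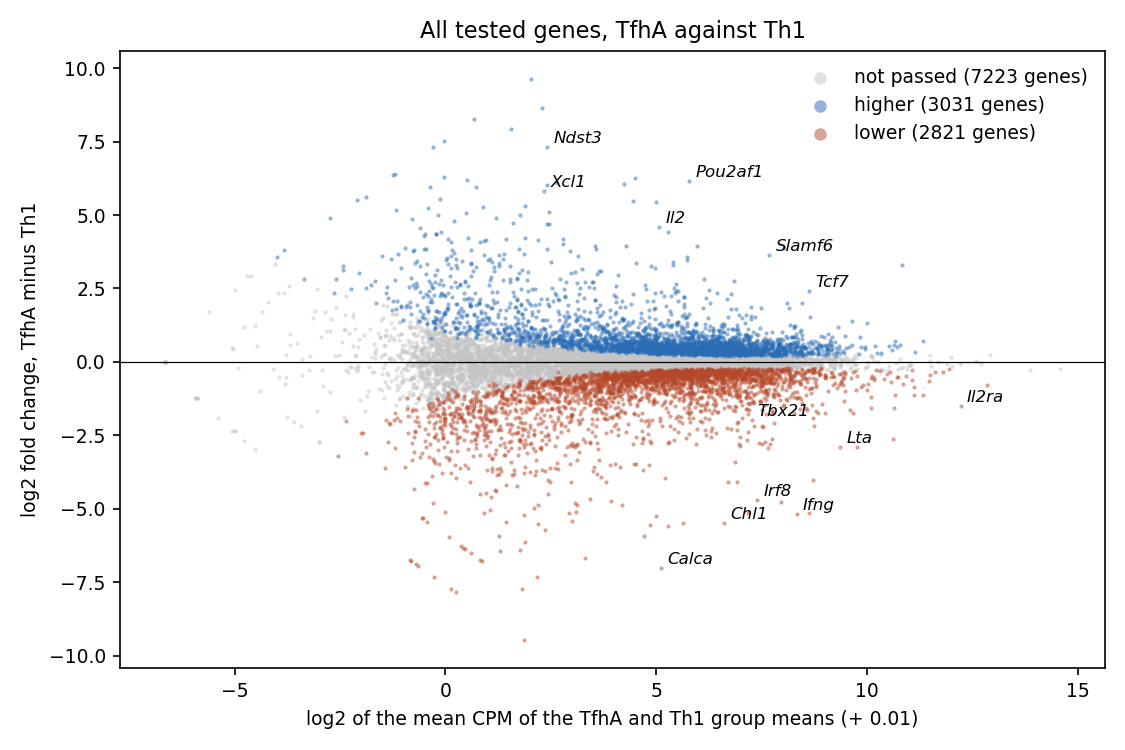
Log2 fold change of TfhA minus Th1 (vertical axis) against log2 of the mean level in CPM of both groups (horizontal axis, 0.01 CPM added), 1 point per tested gene. Blue points are the 3031 genes that were higher in TfhA, red points the 2821 that were lower and grey points the 7223 that did not pass; Ifng, Irf8, Lta and Il2ra lie among the lower genes, Pou2af1, Il2, Slamf6 and Tcf7 among the higher ones.

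The 5 marker genes separated the groups in every library. Ifng, the hallmark cytokine of Th1 cells (Entrez gene 15978, mm10 chromosome 10, 118441046 to 118445894), measured 17.5, 8.45, 31.2 and 12.1 CPM in TfhA replicates 1, 2, 4 and 5 and 493, 666, 627, 708 and 623 CPM in Th1 replicates 1 to 5. TfhA libraries were thus all low but not empty of Ifng, replicate 4 holding the most and replicate 2 the least. The change was -5.18 ± 0.24 (log2, 36.3-fold lower, adjusted p = 1.2e-14). Tbx21, the gene of T-bet (Entrez gene 57765, mm10 chromosome 11, 97098007 to 97115331), measured 69.4, 61.5, 63.3 and 52.3 CPM in TfhA and 305, 242, 230.5, 225 and 218 CPM in Th1 (-1.98 ± 0.12, adjusted p = 9.47e-13). Its decrease was 3.96-fold, much smaller than that of Ifng, leaving 61.6 ± 7.06 CPM in TfhA, with 1.9 ± 0.424 CPM in Tfh5.

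Tcf7, whose product TCF-1 is shared by naive, memory and follicular helper cells (Entrez gene 21414, mm10 chromosome 11, 52246527 to 52283383), measured 727, 782, 524 and 600.1 CPM in TfhA and 152, 119.5, 121, 122 and 103 CPM in Th1 (2.41 ± 0.12, adjusted p = 2.43e-14). Pou2af1, a coactivator of octamer-binding factors in lymphocytes (Entrez gene 18985, mm10 chromosome 9, 51213690 to 51240079), was nearly silent in Th1 at 0.561, 2.29, 2.27, 1.53 and 0.99 CPM and reached 118, 137, 67.4 and 111 CPM in TfhA (6.16 ± 0.23, 71.6-fold, adjusted p = 9.85e-17). Il2, the T cell growth factor (Entrez gene 16183, mm10 chromosome 3, 37120713 to 37125954), measured 63.3, 54, 46.9 and 94.1 CPM in TfhA and 1.87, 3.19, 3.7, 1.66 and 2.97 CPM in Th1 (4.60 ± 0.23, 24.2-fold, adjusted p = 5e-14). No TfhA library overlapped a Th1 library for any of these. For Tcf7, Pou2af1, Ifng and Tbx21 the TfhA mean lay between those of Th1 and Tfh5, whereas Il2 was higher in TfhA than the 8.4 ± 2.09 CPM of Tfh5.

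**Figure D2:**
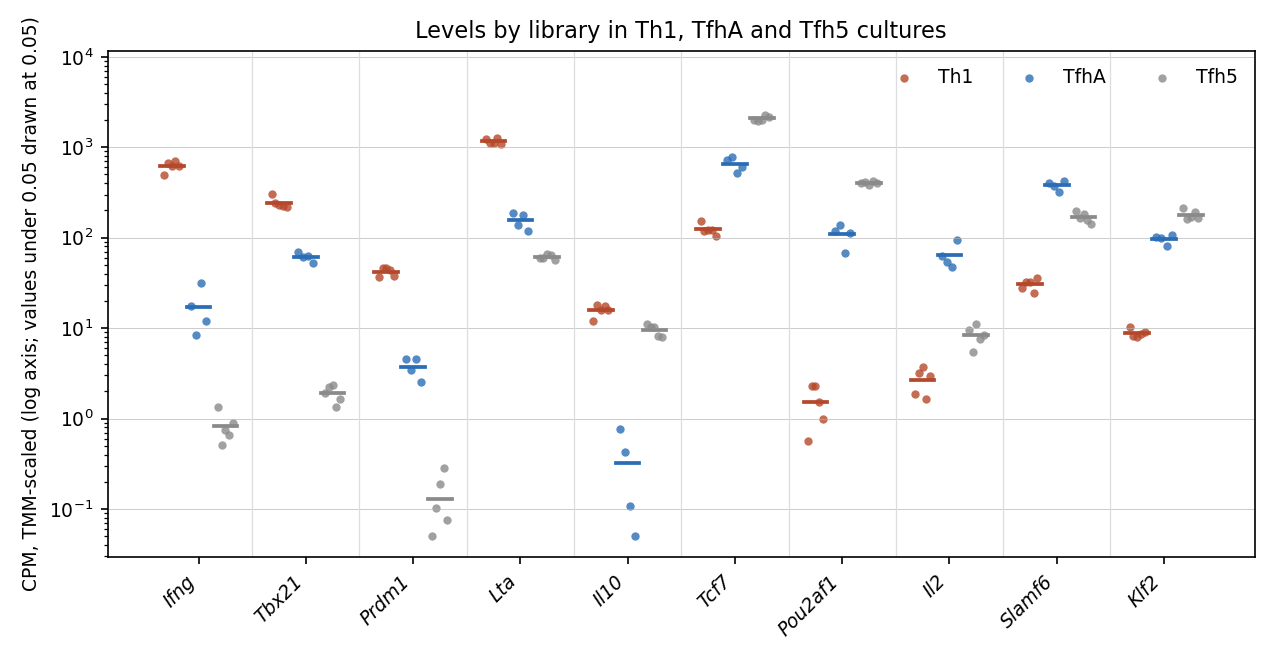
Level in each library (CPM scaled by TMM, log axis, values under 0.05 drawn at 0.05) of the 5 markers and 5 further genes; each point is 1 library, the bar is the group mean, red Th1, blue TfhA and grey Tfh5. Ifng, Tbx21, Prdm1, Lta and Il10 are lower in every TfhA library than in every Th1 library, and Tcf7, Pou2af1, Il2, Slamf6 and Klf2 higher.

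Most regulators of the Th1 program fell in TfhA, though not all. Of 13 Th1 regulators, 10 fell, 2 rose and 1 did not pass, with a median log2 fold change of -1.41 against 0.03 for all genes; 7 fell at least 2-fold, where 8.29% of all genes did. Prdm1, the gene of Blimp-1, measured 4.55, 3.41, 4.55 and 2.55 CPM in TfhA and 36.6, 46.5, 45.7, 43.6 and 37.4 CPM in Th1 (-3.47 ± 0.19, adjusted p = 2.02e-13). Every Th1 library thus held several times the level of the highest TfhA library. Bhlhe40, a repressor that permits cytokine production, fell 3.3-fold, the Runt factor Runx3 3.13-fold, Irf1 3.02-fold, and the homeodomain proteins Hopx 2.79-fold and Hlx 2.66-fold. Stat4, which carries the IL-12 signal, was barely lower (194 ± 22 against 234 ± 24.7 CPM, adjusted p = 0.0366, not passed in 6 of 15 alternative settings, where the adjusted p was 0.0715 to 0.134). Against this direction, Twist1, a T-bet target that dampens Th1 inflammation, measured 32.6, 42.8, 32.3 and 38.5 CPM in TfhA and 14.5, 19.7, 15.7, 15.3 and 16.5 CPM in Th1 (2.24-fold higher, adjusted p = 2.63e-05), and Id2, an inhibitor of E proteins, rose 1.97-fold. Eomes, a relative of T-bet, did not pass (2.35 ± 1.1 and 3.59 ± 0.58 CPM, adjusted p = 0.138, and 0.0334 without TfhA replicate 4).

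Among Th1 cytokines and cytokine receptors, 6 of 10 fell, 2 rose and 2 did not pass (median -0.89). Lta, lymphotoxin α, measured 187, 137, 179 and 118 CPM in TfhA and 1231, 1103, 1111, 1276 and 1086 CPM in Th1 (-2.90 ± 0.12, adjusted p = 1.54e-15), without overlap. The chains of the IL-12 receptor fell together: Il12rb2 from 2365 ± 268 to 794 ± 146 CPM (2.98-fold) and Il12rb1 from 100.0 ± 9.81 to 36.5 ± 6.62 CPM (2.74-fold), and the IL-18 receptor chain Il18r1 fell 2.55-fold. In Tfh5, Il12rb2 held 46.4 ± 6.44 CPM. The IL-27 receptor Il27ra rose 2.13-fold and Ifngr2, the signalling chain of the interferon-γ receptor, 1.38-fold. Tnf, the other inflammatory cytokine of the list, measured 107, 121, 106 and 96.4 CPM in TfhA and 115, 118, 119.7, 119 and 110.0 CPM in Th1 (-0.11 ± 0.09, adjusted p = 0.334), so the groups overlapped.

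Genes of cytotoxic granules did not all follow Ifng. Of 10 tested, 4 rose, 4 fell and 2 did not pass (median 0.45), and 2 rose and 3 fell at least 2-fold. Gzmb, the protease granzyme B, measured 1515, 1304, 1776 and 1295 CPM in TfhA and 537, 658, 503, 650.5 and 565 CPM in Th1 (1.34 ± 0.29, 2.53-fold higher, adjusted p = 0.000521), and in Tfh5 4.97 ± 6.28 CPM. Every TfhA library lay above every Th1 library, opposite to Ifng. Gzmc rose 5.75-fold (19.5 ± 3.85 against 3.36 ± 1.02 CPM) and the granule protein Nkg7 1.37-fold. The death ligand Fasl fell 4.9-fold, the granule proteoglycan Srgn 2.16-fold and the granzyme inhibitors Serpinb6b 2.01-fold and Serpinb9 1.33-fold, the last not passing in 4 of 15 alternative settings, where the adjusted p was 0.0515 to 0.11. Prf1, perforin, did not pass (8.52 ± 4.03 and 6.08 ± 2.79 CPM, adjusted p = 0.309). Granzymes and serpins of this family have near-identical relatives, and the labels do not say how reads shared between copies were counted.

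Genes known to respond to interferon-γ fell nearly as a group. Of 26 tested, 21 fell, none rose and 5 did not pass, with a median of -0.96, and in 23 the libraries of the groups did not overlap, where 38.1% of all genes showed none. Irf8, an interferon regulatory factor, had the largest decrease: 12.1, 15.2, 13.3 and 8.7 CPM in TfhA against 408, 306, 297, 300.0 and 296 CPM in Th1 (-4.70 ± 0.15, 25.9-fold, adjusted p = 2.28e-17). No TfhA library came near the lowest Th1 library. Iigp1, an immunity-related GTPase, measured 21.4, 16.6, 27.1 and 23.5 CPM in TfhA and 109, 149.8, 134, 109.5 and 116 CPM in Th1 (5.61-fold). The chemokine Cxcl10 fell 3.69-fold, the GTPases Igtp 3.09-fold and Irgm1 2.05-fold, the guanylate-binding proteins Gbp6 3.45-fold and Gbp5 3.08-fold, and the feedback inhibitor Socs1 2.01-fold. Genes of antigen presentation by MHC class I moved the same way: Nlrc5, their transactivator, fell 2.13-fold, the immunoproteasome subunit Psmb9 2.27-fold, the heavy chains H2-D1 2.33-fold and H2-K1 1.94-fold, the peptide transporter Tap1 1.95-fold and B2m 1.73-fold. Gbp2, Gbp7, Gbp9, Psmb8 and Psmb10 did not pass, though Gbp7 did, among other settings, without Th1 replicate 1 (adjusted p = 0.0231) or TfhA replicate 4 (0.0297). Gbp2 passed in 2 of 15 alternative settings, as with only the 9 libraries compared (0.00656), and Psmb8 in 3 (0.0314 to 0.0423), each lower in TfhA. Gbp2 measured 1100.2 ± 42.8 against 1336 ± 86.2 CPM (adjusted p = 0.0954). Guanylate-binding protein and H2 genes are also families with close copies.

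The promoters of 3 of these genes are shown because the list moved together and its classical control element can be searched for in them. The element, the γ-activated site, was searched as TTCNNNGAA on both strands in the 300 bases from 250 before to 50 after each annotated start (RefSeq, build GRCm38.p6). It occurred in 8.30% of 32851 promoters. Counted by gene, with a match in any promoter of the gene, it occurred in 9.20% of genes that fell. The share was 8.29% of genes that rose and 7.94% of those that did not pass, each among genes with a promoter entry. Of the 18 interferon-γ response genes with an entry, 6 had a match: Irf1, Irf8, Gbp5, Igtp, Gbp7 and Psmb8. Irf1, Irf8, Gbp5 and Igtp fell, and Gbp7 and Psmb8 did not pass. Among the 14 genes of the list that fell and had an entry, only 4 thus had a match. A match is a description of the letters and not of a bound site. The 250 bases before the start are printed 5′ to 3′ on the strand of the gene, with each match in capitals, for the 3 genes with the largest decrease among those with a match: Irf8 at chr8:120736108-120736357 (plus strand), Igtp at chr11:58199306-58199555 (plus strand) and Gbp5 at chr3:142496684-142496933 (plus strand).
Irf8: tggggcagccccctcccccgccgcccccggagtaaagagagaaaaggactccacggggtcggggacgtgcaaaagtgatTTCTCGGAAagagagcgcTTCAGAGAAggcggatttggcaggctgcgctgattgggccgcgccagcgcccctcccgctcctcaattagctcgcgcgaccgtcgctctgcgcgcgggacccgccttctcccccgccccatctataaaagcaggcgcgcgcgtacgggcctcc
Igtp: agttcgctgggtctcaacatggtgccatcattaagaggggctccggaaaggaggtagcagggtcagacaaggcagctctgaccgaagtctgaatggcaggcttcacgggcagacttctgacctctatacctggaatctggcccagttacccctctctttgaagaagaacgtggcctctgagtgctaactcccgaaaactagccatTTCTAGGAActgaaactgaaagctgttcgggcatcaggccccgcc
Gbp5: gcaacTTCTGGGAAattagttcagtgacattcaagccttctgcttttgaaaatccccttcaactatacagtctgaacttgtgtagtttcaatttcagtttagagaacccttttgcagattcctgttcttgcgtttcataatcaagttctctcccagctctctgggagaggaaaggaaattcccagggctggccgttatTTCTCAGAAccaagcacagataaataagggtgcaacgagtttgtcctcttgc
Irf8 and Gbp5 each hold 2 matches in this window and Igtp 1. Beside them stands Il2, shown as the marker cytokine that rose, at chr3:37125955-37126204 (minus strand), with capitals on its match to the TCF and LEF element CTTTGAA and on its match to the NFAT element TGGAAA, the latter on the opposite strand.
Il2: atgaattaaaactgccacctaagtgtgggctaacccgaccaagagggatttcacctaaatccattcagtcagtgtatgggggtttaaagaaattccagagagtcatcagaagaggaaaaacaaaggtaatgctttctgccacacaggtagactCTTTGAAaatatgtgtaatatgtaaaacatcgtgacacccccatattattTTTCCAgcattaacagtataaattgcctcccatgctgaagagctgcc
These elements were found in 5.14% and 21.4% of all promoters. The γ-activated element was also found in the promoter of Ifng and in none of those of Tbx21, Tcf7, Pou2af1 and Il2, and the octamer ATGCAAAT in none of the 5.

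Genes of the type I interferon response split instead of falling. Of 25 tested, 9 rose, 6 fell and 10 did not pass (median 0.30), so that 60% passed against 44.8% of all genes. By at least 2-fold, 7 rose, where 5.37% of all genes did. Rtp4, a receptor chaperone induced by type I interferon, measured 16.7, 10.4, 13.5 and 11.6 CPM in TfhA and 0.935, 0.763, 0.605, 0.555 and 0.685 CPM in Th1 (4.18 ± 0.30, adjusted p = 3.32e-11). No library overlapped, and Tfh5 held 0.0909 ± 0.117 CPM. The RNA sensor Ifih1 rose from 38.8 ± 3.94 to 109.9 ± 13.7 CPM (2.83-fold), Oasl2 2.73-fold, Ifit1 2.1-fold and Ifit3, at low levels, 8.48-fold. Mx1, annotated as a transcribed pseudogene, rose 2.83-fold. Rsad2 rose 2.65-fold, with a call lost in 7 of 15 alternative settings, where the adjusted p was 0.0535 to 0.0808. In the other direction, Usp18, which removes the ubiquitin-like protein ISG15 from other proteins, fell 2.3-fold. The tethering protein Bst2 fell 2.3-fold, Oas3 2.16-fold, Stat2 1.95-fold and the nucleic acid sensor Zbp1 1.68-fold. Isg15 itself (15.7 ± 3.16 against 20.5 ± 4.09 CPM, adjusted p = 0.0984) and Irf7 (30.9 ± 4.62 against 25.2 ± 3.55 CPM, adjusted p = 0.114) did not pass.

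**Figure D3:**
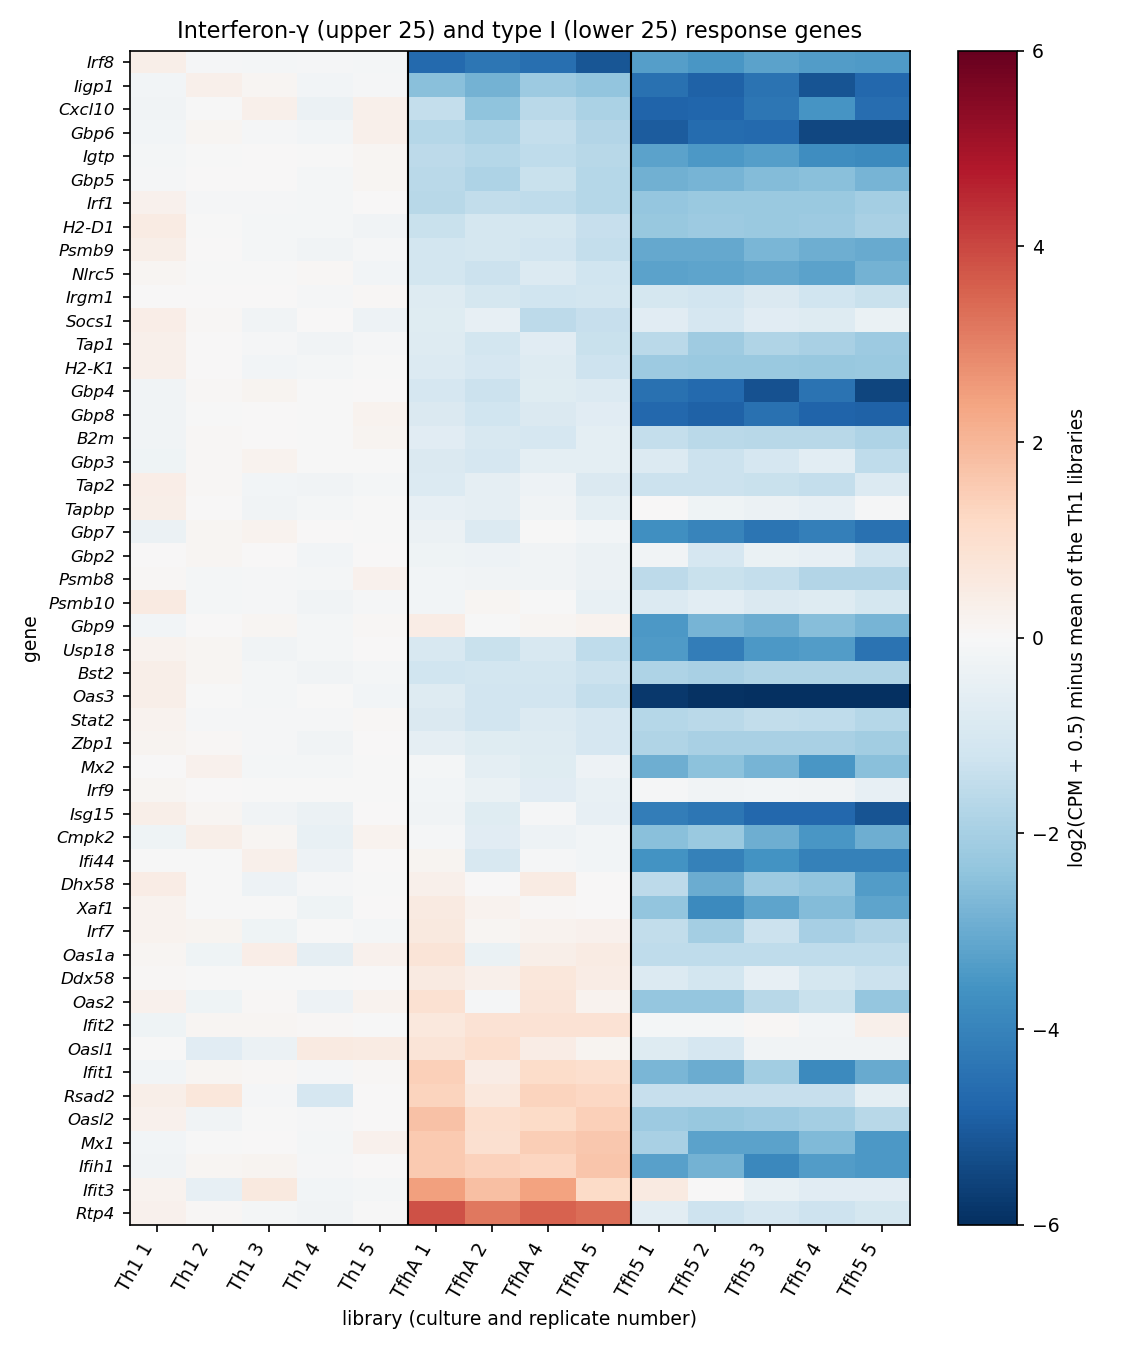
Log2(CPM + 0.5) in each library minus the mean of the Th1 libraries (colour, red higher and blue lower, scale from -6 to 6) for 25 of the 26 tested interferon-γ response genes (upper rows) and the 25 tested type I interferon response genes (lower rows), each list ordered by its change; columns are libraries by culture and replicate number. In the TfhA columns the upper rows are blue from Irf8 to Tapbp, and the lower rows pass from blue at Usp18 to red at Rtp4.

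Follicular helper genes were nearly as often lower as higher in TfhA, with more increases than decreases among the larger changes. Of 23 tested, 9 rose, 8 fell and 6 did not pass (median 0.18), so that 73.9% passed against 44.8% of all genes. By at least 2-fold, 7 rose and 4 fell, where 5.37% and 8.29% of all genes did. Besides Pou2af1, the gene that rose most at a high level was Slamf6, a receptor of the SLAM family on follicular helper and memory cells, at 401, 375, 318 and 423 CPM in TfhA and 27.6, 32.4, 32.7, 24.5 and 36.2 CPM in Th1 (3.63 ± 0.12, adjusted p = 2.9e-17). All TfhA libraries lay far above all Th1 libraries, and Tfh5 held 169 ± 22 CPM. Angptl2, a secreted angiopoietin-like protein, rose 9.75-fold, Rgs16, a brake on G protein signalling, 5.41-fold, the nuclear factor Tox 3.09-fold, the CD30 ligand Tnfsf8 2.05-fold and the B cell helper cytokine Il21 1.81-fold. Tox2, a relative of Tox that promotes the follicular program, rose from 0.0693 ± 0.0493 to 2.7 ± 0.934 CPM (33.9-fold), with 23.2 ± 5.23 CPM in Tfh5.

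Bcl6 and Cxcr5, defining genes of the lineage, did not pass. Bcl6 measured 18.8, 22.3, 11.5 and 12.8 CPM in TfhA and 10.5, 17, 12.6, 11.7 and 9.82 CPM in Th1 (0.42 ± 0.18, adjusted p = 0.061), and the follicle-homing receptor Cxcr5 2.2, 2.13, 2.81 and 0.637 CPM in TfhA and 1.75, 2.63, 0.756, 1.87 and 1.83 CPM in Th1 (0.14 ± 0.29, adjusted p = 0.72). Libraries of the groups overlapped for both, and Tfh5 held 105 ± 16.6 and 79.3 ± 6.65 CPM. Bcl6 passed in 5 of 15 alternative settings, with the higher level in TfhA: among them were those without Th1 replicate 2 (adjusted p = 0.0138), TfhA replicate 4 (0.0181) and TfhA replicate 5 (0.032). Pdcd1, the receptor PD-1, did not pass either (40.4 ± 8.37 against 35.8 ± 5.61 CPM). Maf, the gene of c-Maf, rose 1.61-fold (32.3, 28.8, 29.9 and 35.7 CPM in TfhA, 15.2, 29.1, 17.8, 13.4 and 22.6 CPM in Th1), with Th1 replicate 2 inside the TfhA range and Tfh5 at 1419 ± 153 CPM. Among the genes that fell were Sh2d1a, the adaptor SAP that follicular help requires (3.37-fold), the chemokine receptor Cxcr4 (3.24-fold), Cd40lg, the contact signal to B cells (2.19-fold), Irf4 (2.19-fold), Cd200 (1.94-fold) and Icos (1.46-fold). The TfhA culture is a follicular helper culture by its labels. Of the genes tied to such cells, Tcf7, Il21 and Pou2af1 rose, Sh2d1a, Cd40lg and Icos fell, and Bcl6 and Cxcr5 did not pass.

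Genes of naive and memory cells went both ways, more of them higher than lower. Of 20 genes tested, 12 rose, 5 fell and 3 did not pass (median 0.40). Klf2, which maintains quiescence and egress from tissue, measured 101, 100.3, 81.2 and 107 CPM in TfhA and 10.2, 8.18, 7.94, 8.67 and 9.06 CPM in Th1 (3.46 ± 0.12, adjusted p = 2.9e-17). The repressor Bach2 rose 1.81-fold, the costimulatory receptor Cd27 2.43-fold, Id3 1.62-fold, Foxo1 1.34-fold and Lef1 1.34-fold, the call of Lef1 not holding without TfhA replicate 1 (adjusted p = 0.0765). The chromatin organiser Satb1 fell 1.21-fold, the IL-7 receptor Il7r 2.29-fold, the egress receptor S1pr1, itself a target of Klf2, 1.96-fold and the lymph node homing receptor Ccr7 1.28-fold.

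The IL-2 pathway showed more ligand and less of the receptor and its known targets. Of 22 genes of the IL-2 and STAT5 axis, 2 rose (Il2 and Gzmb), 16 fell and 4 did not pass (median -0.58). Il2ra, the α chain that gives the receptor its high affinity, measured 2765, 2299, 2499 and 2414 CPM in TfhA and 6238, 6632, 7356, 7724 and 7090.4 CPM in Th1 (-1.49 ± 0.11, adjusted p = 4.44e-11). The ranges were far apart, opposite in direction to Il2. The β chain Il2rb fell 2.52-fold (397 ± 41.1 against 1002 ± 49.3 CPM), and the common γ chain Il2rg did not pass (763 ± 146 against 682 ± 20.8 CPM, adjusted p = 0.194, and 0.035 without TfhA replicate 4). The signal transducers Stat5b (1.89-fold) and Stat5a (1.45-fold) fell, as did the STAT5 targets Cish (2.3-fold), Lif (3.26-fold), the survival factor Bcl2l1 (2.51-fold), the costimulatory receptor Tnfrsf9 (2.73-fold) and Myc (1.42-fold). In the IL-6 and STAT3 axis, where 40% of 10 genes passed, the IL-6 receptor Il6ra rose 2.41-fold and the kinases Jak2 1.92-fold and Jak1 1.42-fold, Pim1 fell 1.32-fold, and Stat3 did not pass (235 ± 15.1 against 253 ± 22.2 CPM).

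Genes of secreted and TNF family ligands gave both directions. Of 34 tested, 11 rose, 15 fell and 8 did not pass (median -0.12), and 12 fell at least 2-fold. Il24, a member of the IL-10 family, measured 26.2, 16.6, 24.9 and 18.9 CPM in TfhA and 759, 625, 767, 894 and 792 CPM in Th1 (-5.15 ± 0.18, adjusted p = 4.3e-17). Il10, the anti-inflammatory cytokine that Th1 cells also make, measured 0.757, 0.427, 0.108 and 0 CPM in TfhA and 11.8, 17.8, 15.7, 17.5 and 15.8 CPM in Th1 (42.3-fold lower, and 76.3-fold without TfhA replicate 1), whereas Tfh5 held 9.56 ± 1.39 CPM. For Il24 and Il10, as for Ifng, the highest TfhA library was far below the lowest Th1 library. The opioid precursor Penk fell 4.1-fold, the growth factor Csf1 3.07-fold and the chemokine Ccl5 1.79-fold. Il9 had 1 count over the TfhA libraries and 147 over Th1, a ratio of 89.9 in favour of Th1 (95% interval 15.9 to 3576, counting error only).

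Xcl1, a chemokine for cross-presenting dendritic cells, was nearly absent in Th1 at 0.187, 0.208, 0.454, 0 and 0 CPM and measured 13.3, 8.36, 8.12 and 10.1 CPM in TfhA (5.81 ± 0.41, 56-fold higher, and 88.0-fold without Th1 replicate 3). Areg, the growth factor amphiregulin, rose 5.56-fold (7.04 ± 2.22 against 1.26 ± 0.16 CPM) and the chemokine Ccl4 1.68-fold. Outside the list, Il33, an alarmin better known from epithelium and stroma, measured 11.6, 11.6, 8.23 and 10.5 CPM in TfhA and 0.436, 0.0693, 0, 0.208 and 0 CPM in Th1 (6.01 ± 0.51, 64.5-fold higher, and 127-fold without Th1 replicate 1). All TfhA libraries held it, and Tfh5 averaged 0.101 ± 0.177 CPM.

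**Figure D4:**
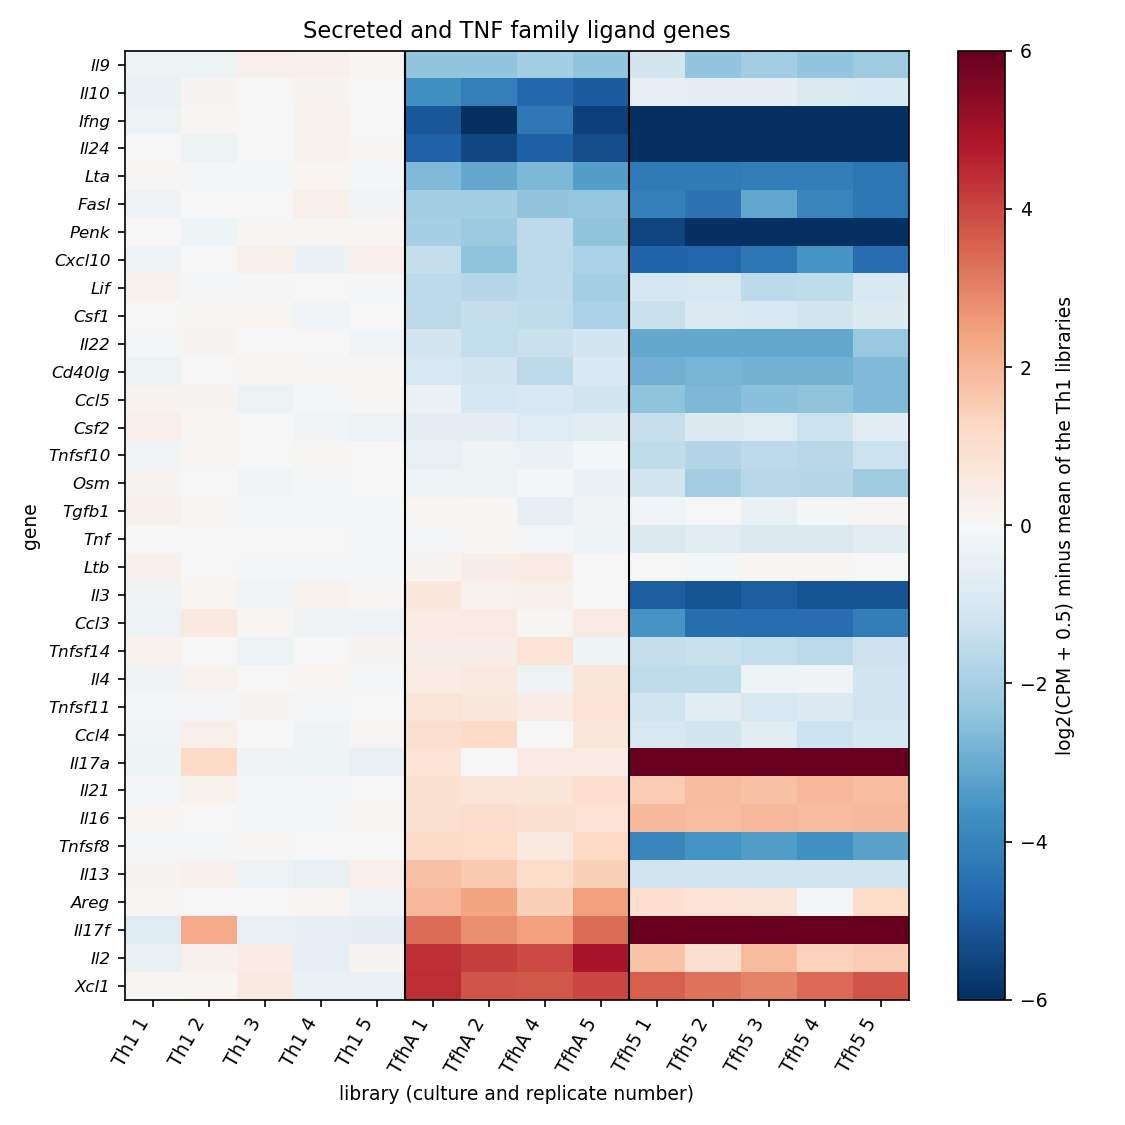
Log2(CPM + 0.5) in each library minus the mean of the Th1 libraries (colour, red higher and blue lower, scale from -6 to 6) for the 34 tested genes of secreted and TNF family ligands, ordered by their change in TfhA; columns are libraries by culture and replicate number. The TfhA columns run from blue at Il9, Il10, Ifng and Il24 to red at Il17f, Il2 and Xcl1, and Th1 replicate 2 stands out in red for Il17f.

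Th2 and Th9 genes passed about as often as genes in general (50%) and Th17 genes less often (33.3%), where 44.8% of all genes did. By at least 2-fold, 2 Th2 and Th9 genes were higher and 4 lower, and 2 Th17 genes were higher and 2 lower. Among all genes, 5.37% were higher and 8.29% lower by that much. Of 12 Th2 and Th9 genes, 2 rose, 4 fell and 6 did not pass: Gata3, the Th2 regulator, measured 33.4, 30.6, 44.8 and 37.3 CPM in TfhA and 13.8, 14.8, 9.75, 11.4 and 14.5 CPM in Th1 (1.51 ± 0.15, adjusted p = 1.31e-08), Il13 rose 4.01-fold at a low level, Nfil3, a basic leucine zipper factor, fell 4.13-fold, and Il4ra and Stat6 did not pass. Of 15 Th17 genes, 2 rose, 3 fell and 10 did not pass. Il17f measured 18.9, 12.5, 9.96 and 18.9 CPM in TfhA and 0.624, 8.6, 0.907, 0.832 and 0.761 CPM in Th1; it rose 6.4-fold, or 19.2-fold without Th1 replicate 2, the Th1 library that held most of this transcript. Il17a, below 1 CPM in every library of the comparison, passed only in the setting without Th1 replicate 2 (adjusted p = 0.00158). The IL-1 receptor Il1r1 rose 3.86-fold, and Batf3, a partner of AP-1, fell 4.98-fold.

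Of 16 regulatory T cell genes, 4 rose, 9 fell and 3 did not pass (median -0.36), so that 81.2% passed against 44.8% of all genes. Foxp3 was low and overlapped (2.24 ± 1.21 against 2.43 ± 1.48 CPM, adjusted p = 0.834). Entpd1, the ectoenzyme CD39, measured 1.89, 1.45, 1.95 and 1.8 CPM in TfhA and 20.0, 24.8, 17.4, 25 and 19.4 CPM in Th1 (12-fold lower), the cytokine subunit Ebi3 fell 11.3-fold and the Ikaros factor Ikzf4 3.56-fold. Gpr83 rose 8.53-fold, Nt5e, the ectoenzyme CD73, 2.97-fold and Nrp1 2.06-fold.

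Because the antibody in the TfhA culture blocks TGF-β, genes known to respond to it were read against Th1. Of 20 genes of the TGF-β and SMAD list, 10 fell, 4 rose and 6 did not pass (median -0.28), and 7 fell at least 2-fold. Skil, a SMAD corepressor induced by the pathway, measured 37, 35.7, 44.6 and 43.3 CPM in TfhA and 97, 102, 118, 116 and 105 CPM in Th1 (-1.42 ± 0.09, adjusted p = 9.19e-12). All Th1 libraries lay above all TfhA libraries, and Tfh5 held 361 ± 5.91 CPM. The feedback inhibitor Pmepa1 fell 2.19-fold (36.7 ± 4.38 against 80.6 ± 10.5 CPM, Tfh5 181 ± 11.2), the ligand Tgfb3 5.22-fold, the coreceptor Tgfbr3 2.05-fold and the inhibitory SMAD Smad7 1.35-fold, the call of Smad7 not holding without TfhA replicate 4 (adjusted p = 0.0566). Itgb8, an integrin chain that activates latent TGF-β, fell 4.31-fold (0.404 ± 0.281 against 1.73 ± 0.324 CPM). The signal transducer Smad3 went the other way, with 116, 108, 98.1 and 104 CPM in TfhA and 35.5, 28.4, 26.9, 29.3 and 30.5 CPM in Th1 (3.54-fold higher, adjusted p = 5.6e-14), and Runx1 rose 1.91-fold. Tgfb1 and Smad4 did not pass. The antibody and the other conditions that differ between the cultures change together and cannot be told apart.

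Of 15 inhibitory and costimulatory receptors, 10 fell, 2 rose and 3 did not pass (median -0.63). Ctla4, an inhibitor of costimulation, measured 220.1, 211, 204 and 251 CPM in TfhA and 549, 612, 587, 677 and 607 CPM in Th1 (-1.45 ± 0.10, adjusted p = 9.67e-12). Lag3 fell 2.1-fold, the GITR gene Tnfrsf18 2.35-fold and Havcr2, TIM-3, 14.3-fold from 4.35 ± 1.07 CPM. Cd160, a ligand of HVEM, measured 9.92, 11.4, 9.09 and 9.23 CPM in TfhA and 0.436, 0.416, 0.529, 1.32 and 0.761 CPM in Th1 (14.2-fold higher). Cd28 did not pass (1225 ± 139 against 1215 ± 111 CPM).

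Genes induced by the T cell receptor split into opposite sets. Of 25, 13 rose, 8 fell and 4 did not pass (median 0.52), so that 84% passed against 44.8% of all genes. The early growth response factor Egr2 measured 54.5, 68.6, 38 and 46.5 CPM in TfhA and 11.8, 13.1, 8.24, 10.7 and 7.23 CPM in Th1 (2.34 ± 0.21, adjusted p = 2.53e-09). Egr1 rose 3.01-fold, Egr3 2.74-fold, Nr4a1 (Nur77) 2.05-fold, Fos 2.94-fold, Nfatc1 1.61-fold, and the inhibitors of ERK signalling Dusp6 4.18-fold and Spry1 3.42-fold. The AP-1 subunits Jun (31.4 ± 4.91 against 99.3 ± 13.2 CPM, 3.16-fold) and Fosl2 (2.28-fold) fell, and so did the phosphatases Dusp4, at 32.7, 33.8, 47.1 and 32.2 CPM in TfhA and 232, 214, 198, 228 and 206 CPM in Th1 (5.93-fold), and Dusp5 (3.64-fold). Within the dual-specificity phosphatases, Dusp2 and Dusp6 were thus higher and Dusp4 and Dusp5 lower.

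The inflammatory chemokine receptors Ccr2 and Cxcr3 were higher in TfhA. Of 24 chemokine and homing receptors, 7 rose, 8 fell and 9 did not pass (median -0.07), so that 62.5% passed against 44.8% of all genes. Ccr2, a receptor for inflammatory chemokines, measured 30.0, 30.3, 26.6 and 33 CPM in TfhA and 3.3, 4.02, 4.91, 3.4 and 3.66 CPM in Th1 (2.96 ± 0.15, adjusted p = 6.17e-14). Cxcr3, a T-bet target that marks Th1 cells, rose as well: 123, 100.2, 90.6 and 86.4 CPM in TfhA and 44.6, 42.1, 38.9, 41.5 and 39.1 CPM in Th1 (2.43-fold, adjusted p = 1.09e-08), opposite to Tbx21 and without overlap. The integrin chain Itga4 rose 3.47-fold. Gpr183, the oxysterol receptor EBI2 that guides cells within lymphoid tissue, fell 1.59-fold and Ccr8 2.08-fold, and Cxcr6 rose 1.53-fold with a call lost in 5 of 15 alternative settings, among them the one without TfhA replicate 4 (adjusted p = 0.39).

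Proliferation genes were higher and glycolytic genes lower in TfhA. Of 28 cell cycle genes, 22 rose, none fell and 6 did not pass, all by less than 2-fold (median 0.37). Among all tested genes, 23.2% rose and 21.6% fell. Top2a, the topoisomerase of dividing cells, measured 1021, 998, 1501 and 1202 CPM in TfhA and 630.1, 679, 674, 595 and 679.9 CPM in Th1 (0.86 ± 0.11, adjusted p = 1.06e-06), and cyclin A2 (Ccna2) rose 1.63-fold, the replicative helicase subunits Mcm3 1.6-fold and Mcm5 1.54-fold, and Mki67 1.42-fold. Pcna, Plk1 and Cdt1 did not pass, though Pcna did without TfhA replicate 4 (adjusted p = 0.0358). Of 15 ribosome biogenesis genes, 9 rose, none fell and 6 did not pass (median 0.42), so that 60% passed against 44.8% of all genes. The nucleolar proteins Nop58 (1.91-fold), Nolc1 (1.88-fold) and Gnl3 (1.83-fold) were ahead. TfhA libraries were the shallower ones; thinned to the smallest total, 5632 genes passed, 93.8% of the calls kept and all of those in the same direction.

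Of 24 genes of glycolysis and the hypoxia response, 16 fell, 3 rose and 5 did not pass (median -0.49), where 21.6% of all genes fell and 23.2% rose. The glucose transporter Slc2a1 measured 142, 139, 102 and 94.7 CPM in TfhA and 235, 195, 194, 223 and 192 CPM in Th1 (1.73-fold, adjusted p = 2.14e-05). Hexokinase 2 (Hk2) fell 1.59-fold, aldolase (Aldoa) 1.83-fold and Vegfa 2.06-fold, while Ldha and Pgk1 did not pass (Ldha reached an adjusted p of 0.0191 without TfhA replicate 4) and the kinase Pdk1, which diverts pyruvate from mitochondria, rose 1.27-fold. Gapdh fell 1.98-fold (11.6 ± 2.71 against 23.1 ± 7.48 CPM), a gene with many processed copies in the genome, and how reads shared with them were counted is not known here.

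**Figure D5:**
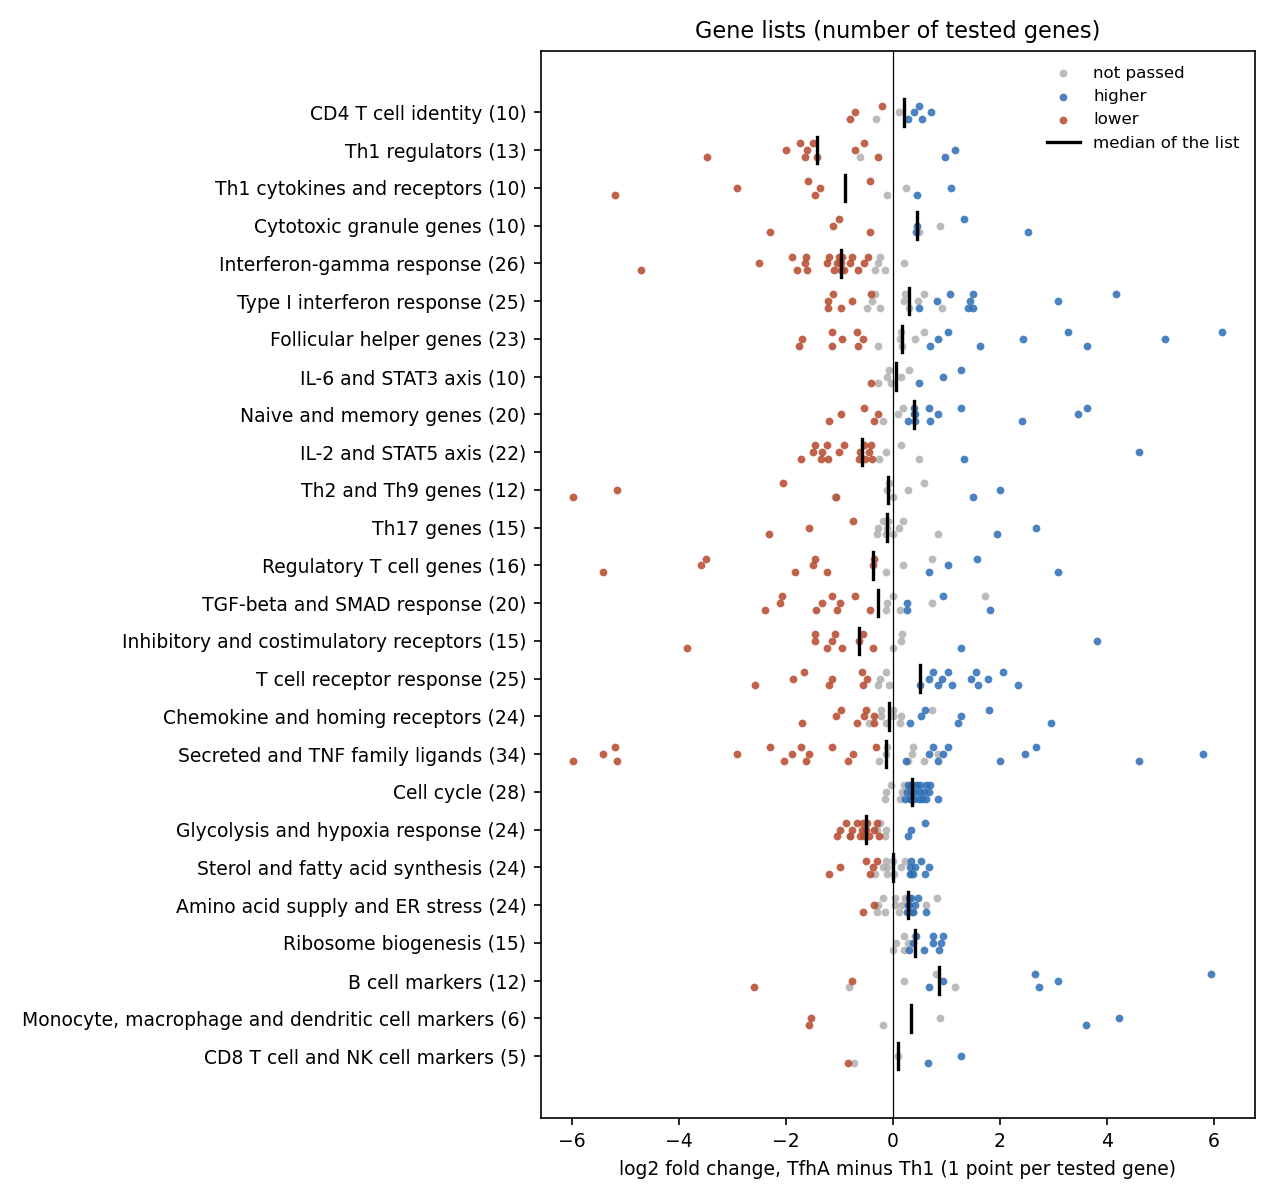
Log2 fold change of TfhA minus Th1 for every tested gene of the lists with at least 5 tested genes (1 point per gene, the number of genes in brackets); blue points rose, red points fell, grey points did not pass, and the black bar is the median of the list. The Th1, interferon-γ, IL-2 and glycolysis lists have medians left of 0, and the cell cycle and ribosome biogenesis lists hold no gene that fell.

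The 12 genes with the largest decrease were picked among genes that passed, had no overlap of libraries and reached at least 10 CPM in Th1. Separation of all libraries was thus a condition of the choice. They were Calca, Insl5, Onecut2, Casr, Stra6, Lrp1, Chl1, Cd83, Il10, Sema3b, Ifng and Ttc39c. Calca, the precursor of calcitonin and the neuropeptide CGRP, measured 0.606, 0.853, 0.216 and 0.318 CPM in TfhA and 78.2, 78.4, 63.7, 64.5 and 61 CPM in Th1 (-7.01 ± 0.24, 129-fold, adjusted p = 2.9e-17). Chl1, a neural cell adhesion molecule, measured 4.47, 2.9, 4.98 and 4.67 CPM in TfhA and 148, 199.8, 210.0, 211 and 187 CPM in Th1 (-5.50 ± 0.18), and Cd83, an activation antigen, 2.2, 2.05, 2.71 and 1.8 and 114, 88.3, 89.6, 103 and 93.7 CPM (-5.48 ± 0.18). Tfh5 held 0.202 ± 0.218 CPM of Chl1 and 0.38 ± 0.253 CPM of Cd83. The relaxin family hormone Insl5 fell 102-fold, the homeobox factor Onecut2 61.3-fold, the retinol-binding protein receptor Stra6 47.6-fold, the endocytic receptor Lrp1 46.9-fold, the semaphorin Sema3b 38.1-fold, Ttc39c 35.5-fold and the calcium-sensing receptor Casr 52.8-fold, or 93.1-fold without TfhA replicate 1.

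The 12 with the largest increase, picked by the same conditions with at least 10 CPM in TfhA, were Ndst3, Mab21l2, Pou2af1, Vat1l, Il33, Akr1c18, Moxd1, Dhrs9, Il2, Scml4, Rtp4 and Abi3bp. Ndst3, an enzyme of heparan sulfate synthesis, measured 9.39, 11.1, 9.53 and 12.1 CPM in TfhA and 0.0624, 0.139, 0, 0 and 0.0761 CPM in Th1 (7.31 ± 0.58, adjusted p = 2.18e-10). Scml4, a Polycomb-related factor of lymphocytes, measured 71.7, 77.2, 75.5 and 74.5 CPM in TfhA and 4.93, 2.98, 2.57, 2.98 and 3.66 CPM in Th1 (4.43 ± 0.14), with 64.9 ± 4.73 CPM in Tfh5. Mab21l2 rose 76.6-fold, Vat1l 66.7-fold, Akr1c18, which inactivates progesterone, 44.3-fold, the monooxygenase-like Moxd1 43.5-fold, the retinol dehydrogenase Dhrs9 34.6-fold and Abi3bp 16.1-fold. Ndst3, Vat1l, Il33, Moxd1, Rtp4 and Abi3bp had at most 1.49 CPM on average in Tfh5, while Pou2af1 held 407 ± 12.9 CPM there.

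Some markers of other cells differed between the groups. Of 6 listed γδ T cell markers, 3 were among the counted genes and only 1, Trdc, had enough counts to be tested. Trdc, the constant region of the δ chain, measured 53.2, 32.8, 79.2 and 48.7 CPM in TfhA and 5.49, 5.89, 4.01, 7.84 and 4.49 CPM in Th1 (3.26 ± 0.23, adjusted p = 3.46e-11). Trdv4 had 0 counts in both groups. The list summed to 33.0 to 79.6 CPM in TfhA and 4.31 to 8.25 in Th1, most of it Trdc. Summed over their lists, B cell markers reached 109 to 139 CPM in TfhA and 160.4 to 186 in Th1, and 6 of 12 tested rose, 2 fell and 4 did not pass. Their sum was carried by Ighm (1.6-fold higher) and Fcmr (6.01-fold lower), the latter an Fc receptor that T cells also express, while Ms4a1, CD20, had 63 counts over TfhA and 1 over Th1 (a ratio of 103, 95% interval 17.8 to 4131, counting error only) and Pax5 12 and 0. Monocyte, macrophage and dendritic cell markers summed to 70.4 to 131 CPM in TfhA and 245 to 308 in Th1, mostly through Cd74 (2.89-fold lower) and H2-Ab1 (2.95-fold lower), of the MHC class II pathway; 2 of 6 tested fell, 2 rose (H2-Aa at 6.99 ± 1.16 against 0.361 ± 0.143 CPM, and Itgam) and 2 did not pass, while Adgre1, C1qa and Siglech had 0 counts and Lyz2 0 and 1. CD8 T cell and NK cell markers summed to 78.2 to 110.4 CPM in TfhA and 65.1 to 114 in Th1, Ncr1 had 0 counts, and Cd8b1 did not pass (10.7 ± 6.04 against 17.8 ± 8.7 CPM), though it did in 5 of 15 alternative settings, among them those without Th1 replicate 3 (adjusted p = 0.037) and TfhA replicate 2 (0.00243). Granulocyte and mast cell markers came down to Ly6g, at 26.6, 30.8, 26.8 and 22.5 CPM in TfhA and 119.8, 178, 133, 131 and 159.9 CPM in Th1 (5.4-fold lower), with Mpo, Mcpt8 and Cpa3 at 0 and S100a8 at 0 and 1. Red cell and platelet markers summed to 0.909 to 2.38 CPM in TfhA and 0.624 to 1.44 in Th1, and the globin genes Hba-a1 and Hbb-bs had no counts. The part that cells carrying these markers had in the results above was not tested.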

How the data were processed

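Naive mouse CD4 T cells were cultured for 3.5 days under Th1 or Tfh conditions, and libraries were made with a Lexogen SENSE mRNA kit, per the labels' protocols. The authors deposited raw counts per gene under Entrez identifiers, made with STAR 2.7.2b and featureCounts 1.6.4 on build mm10 according to the submitters' processing notes. The labels do not give the annotation, strand setting or handling of multiply mapped reads. Symbols came from RefSeq for 25275 of 27179 identifiers; the 1904 without one held 1.91% of counts.

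Groups follow the sample titles. In R 4.3.3, all 14 libraries were fitted in edgeR 4.0.16 (group means, filterByExpr, TMM, quasi-likelihood F test, two-sided, Benjamini-Hochberg at 0.05), the groups sharing 1 estimate of the spread. The SE is the fold change divided by the square root of F. The steps were tested on simulated data. Total counts ranged from 8805921 to 16108059 in the 9 libraries compared, and the common biological variation was 14.2%. Of the ratios of genes with few counts in a group, only those of Il9 and Ms4a1 carry exact 95% intervals. Tfh5 enters the fit but is not compared.

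Genes named were the 5 markers, the 12 largest changes in each direction (passed, no overlap of libraries, no predicted genes, a mean of 10 CPM or more in the higher group), and per list up to 5 in each direction that passed at 5 CPM or more and 3 that did not pass; up to 55 further genes were chosen after their values were seen. The members and lists were chosen with earlier results of these data known. Alternatives were RLE size factors, DESeq2 1.42.0, no filter, only the 9 libraries, a replicate block, leaving out each library and, added after the totals were seen, thinning to the smallest library.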

Additional observations from a re-analysis of the deposited data

Results flagged for a closer look

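Within each group of libraries, the highest or lowest library was set against the others by Dixon's test at the 95% level. Of 476 groups of values for the genes and library measures given above, 33 (6.93%) had such a library. The nominal rate of about 1 in 20 assumes independent, normally distributed values, which genes of the same libraries do not give. The 2 rates therefore cannot be compared. Il9 in TfhA and Ms4a1 in Th1 were flagged through 1 count each. Of the 33, Th1 replicate 1 accounted for 17, TfhA replicate 4 and Th1 replicate 2 for 6 each, TfhA replicate 2 for 2, and TfhA replicate 5 and Th1 replicate 4 for 1 each.

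Th1 replicate 1 was the highest Th1 library for Irf8 (408 CPM, the others 296 to 306), Tbx21 (305 CPM, the others 218 to 242), H2-D1 (363 CPM), Oas3 (214 CPM), Batf3 (175 CPM) and Ccr7 (979 CPM). The same library was the highest for Aldoa (3599 CPM), Lif (381 CPM), Pmepa1 (99.0 CPM), Stat6 (266 CPM) and Tnfrsf18 (538 CPM), and for the summed monocyte, macrophage and dendritic cell markers (308 CPM, the others 245 to 247). It was the lowest for Ptprc (973 CPM, the others 1266 to 1320), Il7r (252 CPM), Cd40lg (266 CPM), Il18r1 (85.7 CPM) and Sc5d (90.1 CPM). Irf8, Tbx21 and H2-D1 belong to the Th1 and interferon-γ lists, and their decreases in TfhA passed also without this library.

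Th1 replicate 2 stood apart by high Il17f (8.60 CPM, the others 0.624 to 0.907), Il17a (0.971 CPM, the others at most 0.0756), Cd8b1 (33.1 CPM), Moxd1 (2.91 CPM) and Rgs16 (31.1 CPM), and by low Penk (73.5 CPM). Th1 replicate 4 held the only Ms4a1 count of its group (0.0694 CPM).

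TfhA replicate 4, the shallowest library, was low for Tnfsf8 (211 CPM, the others 308 to 328) and Bach2 (357 CPM) and high for Dusp4 (47.1 CPM, the others 32.2 to 33.8), Vegfa (43.4 CPM) and Ms4a1 (2.81 CPM), and it held the only Il9 count of the group (0.108 CPM). TfhA replicate 2 was high for Cd8b1 (19.7 CPM, the others 6.60 to 8.33) and Tox2 (4.10 CPM). TfhA replicate 5 was low for Cyp51 (287 CPM).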

How the results depend on the processing

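Over 15 alternative settings, 5220 to 6124 genes passed, against 5852 as reported, and 85.7% to 98.9% of the reported calls were kept, all of them in the same direction. DESeq2 called 6036 genes, edgeR with RLE size factors 5815, without a filter 5891, with only the 9 libraries 6124 and with thinned libraries 5632. Leaving out 1 library gave 5220 (without TfhA replicate 5) to 5622 (without TfhA replicate 2). Genes higher in TfhA made up 47.0% (no filter) to 51.8% (as reported) of calls. With the replicate number as a block, 5521 genes passed. The numbers do not show a pairing of the samples: correlations of same-numbered TfhA and Th1 deviations were 0.057, 0.0253, -0.000458 and 0.155, and TfhA replicate 2 correlated best with Th1 replicate 1 (0.327).

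Of 307 named genes, 237 passed; 17 of these lost the call and 22 others gained one in at least 1 setting, and none reversed. DESeq2 gave no adjusted p for Gzmb and Il17f, which are not counted as lost or kept under it. Of 58 counts by list and direction, 7 moved by over 1.5 times in some setting, each a count of at most 4. Genes near the threshold and genes of few counts are limited by depth, and so are folds resting on under 20 counts in a group.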

Other observations

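Of 24 genes of sterol and fatty acid synthesis, 8 rose, 6 fell and 10 did not pass, with a median log2 fold change of 0.02. In this list 58.3% passed, against 44.8% of all genes. Enzymes of cholesterol synthesis went both ways: Cyp51, the sterol demethylase, rose 1.61-fold (299 ± 8.28 CPM in TfhA against 186 ± 8.91 in Th1), Sc5d 1.53-fold and Hmgcs1 1.45-fold, while Fdps fell 1.35-fold and Mvd 1.41-fold, the call of Mvd not holding without Th1 replicate 1 (adjusted p = 0.0685) or TfhA replicate 5 (0.0626). Desaturases of fatty acids fell, Scd2 from 1577, 1463, 1536, 1689 and 1355 CPM in Th1 replicates 1 to 5 to 750.3, 675, 635 and 605 CPM in TfhA replicates 1, 2, 4 and 5 (-1.19 ± 0.12, edgeR adjusted p = 2.68e-08) and Scd1 1.99-fold. No TfhA library overlapped a Th1 library for either desaturase. The regulator Srebf1 fell 1.29-fold and Srebf2 did not pass (271 ± 60.8 against 296 ± 19.1 CPM).

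Of 24 genes of amino acid supply and ER stress, 10 rose, 2 fell and 12 did not pass (median 0.28). The share that passed, 50%, was near the 44.8% of all genes. The glutamine transporter Slc1a5 rose 1.54-fold, the arginine transporter Slc7a1 1.39-fold and Mthfd2, of mitochondrial folate metabolism, 1.33-fold. Xbp1, the factor that expands the secretory pathway, fell 1.47-fold (321 ± 43.4 against 472 ± 22.2 CPM).

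Some listed genes had too few counts to be tested. The granzyme gene Gzmk had 0 counts over the TfhA libraries and 56 over Th1, and the chemokine Cxcl9 0 and 17. Ccl1, another chemokine, had 18 counts over TfhA and 0 over Th1, and Il5 16 and 3. Ascl2, a regulator of follicular helper cells, had 17 and 31.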
